A study of Mus musculus with 2 samples.

Results

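Retained-intron transcripts are annotated RNAs of a gene that still hold intron sequence which other transcripts of the same gene splice out. The members described here are the Known models, that is, models matching an annotated transcript, whose annotated type is retained_intron. Of the 23597 Known models that held at least 1 read in either library, 2570 were of this type, and they belonged to 2118 genes. The annotation lists 21848 such transcripts. The libraries were made by long-read RNA sequencing of total RNA from the adrenal glands of male B6CASTF1/J mice, first-generation hybrids, at an age of 4 days. There was 1 group, with 2 libraries called biological replicates 1 and 2, and no treatment or other genotype. The labels leave the animals unclear. Replicate 1 is tied to male 03 throughout, whereas the tissue of replicate 2 is tied to male 04 and its library to male 03, and 1 donor identifier covers both. With 1 library on each side, every test below compares these libraries, not animals, and the spread between them may be technical.

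Splicing removes introns from a new RNA in the nucleus, guided by short sequences at the intron's ends, usually GT at its start and AG at its end as written in DNA letters. An intron that is kept in a polyadenylated RNA often brings a stop codon into the reading frame. Such RNAs can be held in the nucleus (detained introns) or broken down by nonsense-mediated decay once translated, among other fates. Genes for splicing regulators, among them the SR proteins and the CLK kinases that phosphorylate them, are known for introns kept in this way.

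The libraries held 688260 mouse reads in replicate 1 and 810645 in replicate 2, of which 74.2% and 70.1% were assigned to Known models. Levels are given as reads and as CPM, counts scaled by the library's mouse reads, without division by length, since a long read is counted once whatever its length. In replicate 1 each read was worth 1.45 CPM, in replicate 2 it was 1.23 CPM, and a model without a read may hold up to 3 reads, or 4.36 and 3.70 CPM. Cortex and chromaffin markers of the adrenal gland were found in both libraries (Cyp11a1 8030 and 9240 reads over all model classes, Th 1649 and 1342). All 6 liver markers looked up were higher in replicate 2, with albumin (Alb) at 48 and 2984 reads, so replicate 2 also held liver RNA. Markers of muscle (Acta1 591 and 1130, Ckm 213 and 405) and brown fat (Ucp1 159 and 320) were higher there too, and the cortex enzyme Cyp21a1 was lower (12570 and 7862). The kidney markers Aqp2 (12 and 2) and Slc34a1 (13 and 2) were higher in replicate 1, on few reads. The part of these other tissues in the differences between the libraries was not tested, except where values without liver genes are given.

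The members fell into 3 classes by their intron chain, the ordered set of introns a read has spliced, which assigns a read to a model. In 365 members the chain was their own, found as a stretch of no other annotated type of transcript of the gene. In 1796 the chain was contained, as an unbroken stretch, in a spliced transcript of another type, and the intron sequence lay only beyond an end of that stretch. The other 409 members were single exons with no intron chain. Only an own chain can separate a kept intron from a shortened spliced RNA, but it does not by itself show a kept intron. In 317 of the 365, with 1048 and 1090 reads, a whole intron of another transcript type lay in an inner exon. Whether the reads of contained members held intron bases was not tested, because the files give the annotated exons of a Known model and not the ends of its reads.

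Whole introns kept by 8 own-chain members are shown first as examples, short enough to be read in full at 69 to 111 bases. Each lay between coding exons. Other own-chain members keep introns of like length that are not printed, so the values after the sequences cover these 8 alone. The 8 are printed 5′ to 3′ as they stand in the RNA, from GENCODE M21 transcript sequences on mm10. The splice-site letters GT and AG are in capitals.
Mdp1-202, chr14:55660099-55660167, minus strand: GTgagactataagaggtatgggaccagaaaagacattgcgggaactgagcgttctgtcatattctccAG
Plekhj1-206, chr10:80797840-80797909, minus strand: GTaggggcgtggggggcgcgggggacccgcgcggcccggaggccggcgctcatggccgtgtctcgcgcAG
Slc1a5-202, chr7:16795953-16796023, plus strand: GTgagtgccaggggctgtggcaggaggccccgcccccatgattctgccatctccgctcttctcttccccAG
Ppdpf-206, chr2:181187737-181187808, plus strand: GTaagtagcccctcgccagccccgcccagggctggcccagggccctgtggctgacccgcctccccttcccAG
Mrps24-203, chr11:5707410-5707486, minus strand: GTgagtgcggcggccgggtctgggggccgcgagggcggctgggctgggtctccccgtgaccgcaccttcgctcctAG
Mrps26-201, chr2:130564228-130564307, plus strand: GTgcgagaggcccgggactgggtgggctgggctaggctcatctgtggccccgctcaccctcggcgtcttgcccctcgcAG
Fbxw9-203, chr8:85064497-85064580, plus strand: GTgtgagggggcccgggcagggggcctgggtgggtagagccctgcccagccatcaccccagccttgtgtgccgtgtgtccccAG
Slc50a1-205, chr3:89269951-89270061, minus strand: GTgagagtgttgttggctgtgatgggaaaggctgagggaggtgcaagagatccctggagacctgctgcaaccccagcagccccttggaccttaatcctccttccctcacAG
All 8 start with GT and end with AG. Their GC content ran from 46.4% in Mdp1 to 82.9% in Plekhj1. The introns of Mdp1, Ppdpf, Fbxw9 and Slc50a1 have a length that is a multiple of 3, and in each of them a stop codon lies in the reading frame of the coding transcript. That of Slc1a5 also holds a stop codon in frame, and those of Plekhj1, Mrps24 and Mrps26 hold none and shift the frame.

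The ends of 3 longer introns are shown for the members that the results below turn on, Rsrp1-204 with the most reads of an own chain, Srsf7-207 as the leading SR protein model, and Alkbh6-202 with a high percentage kept. Each line holds 9 exon and 21 intron bases, with GT or AG in capitals.
Rsrp1-204, start of the intron chr4:134925433-134926734, plus strand: aaggtggagGTaagtgccttcaggaagctg
Rsrp1-204, end of the same intron: taaaattctcttcctctttAGcattcagaa
Srsf7-207, start of the intron chr17:80204388-80205261, minus strand: aagaagcagGTatttaattaatgaaggaat
Srsf7-207, end of the same intron: tttttctaacttaaaaaatAGgtcacgatc
Alkbh6-202, start of the intron chr7:30312389-30312590, plus strand: ggcatcatgGTaaccgcacatcctcatccc
Alkbh6-202, end of the same intron: tggtgcccccttcctccccAGcctcatgaa
For the 3 contained members with the most reads, the last 21 bases of the intron that the first annotated exon runs into, and the first 9 bases of the spliced exon, are as follows. A read that holds intron sequence there extends to the left past the start of the spliced exon.
Cox4i1-204, end of the intron chr8:120669383-120672724, plus strand: ggcctctccaatgtgttgtAGggagtgttg
Rpl5-204, end of the intron chr5:107903869-107904716, plus strand: gacataaaattttcatcttAGtaccaaacg
Sparc-205, end of the intron chr11:55402072-55405179, minus strand: tgccctgtgcttggctcacAGgtatgcagc

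Contained members held most of the reads. Retained-intron models took 7232 reads in replicate 1 and 9479 in replicate 2, 1.42% and 1.67% of all Known reads (1.54% ± 0.178, SD, n = 2). Contained members accounted for 5351 and 7325 of these reads, single exons for 792 and 1006, and own chains for 1089 and 1148. Own chains thus made up 15.1% and 12.1% of the members' reads, or 0.213% (Wilson 95% interval 0.201 to 0.226) and 0.202% (0.191 to 0.214) of Known reads. The share in own chains did not differ past the threshold between the libraries (two-sided Fisher's exact test, p = 0.204, 4 comparisons, also 0.204 after Benjamini-Hochberg adjustment). The shares of all members (adjusted p = 5.47e-26, Fisher's exact test) and of contained members (1.05% and 1.29%, adjusted p = 1.01e-30) were higher in replicate 2. The single-exon share was 0.155% and 0.177% (Fisher's exact test, adjusted p = 0.00704). Without the genes of the liver and globin lists the shares of all members were 1.42% and 1.74%.

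**Figure D1:**
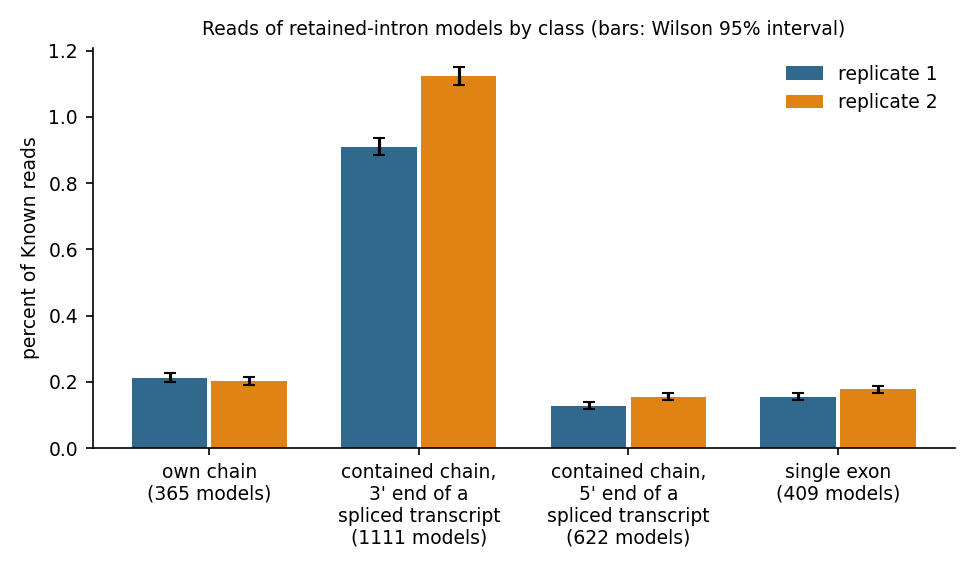
Percent of Known reads (vertical axis) held by retained-intron models of 4 classes (horizontal axis) in each library, with Wilson 95% intervals that cover counting error only; the 5 members contained whole and the 58 contained in the middle of a spliced chain are left out. Chains contained at the 3′ end of a spliced transcript stand above the other classes in both libraries, at 0.910% and 1.12%, while own chains stand at 0.213% and 0.202%.

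Reads were concentrated in few members. Cox4i1-204, Rpl5-204 and Sparc-205 together held 32.1% of the members' reads in replicate 1 and 32.9% in replicate 2, while 1236 members had a single read over both libraries. Without these 3 models the share of Known reads was 0.962% and 1.12%. All 3 are contained at the 3′ end of the gene's coding transcript.

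Cox4i1 encodes a subunit of cytochrome c oxidase, the last complex of the respiratory chain. Cox4i1-204 (chr8:120672590-120674113) held 1064 and 1486 reads, 1546 and 1833 CPM, which was 62.2% and 62.8% of the Known reads of Cox4i1 (62.5% ± 0.401, SD, n = 2). The level was 0.25 higher in replicate 2 on the log2 scale (Fisher's exact test, adjusted p = 7.20e-07), below the minimum of 1 that a call required. The model has 2 introns and its annotated first exon reaches 135 bases into a 3342-base intron of the coding Cox4i1-201, which has 4 introns. Reads along Cox4i1-201 were counted by the number of introns they spliced from the 3′ end, in models of any class. A read was counted only if its whole chain matched the 3′ end of the chain of Cox4i1-201. There were 9 and 19 reads with 1 intron, 1064 and 1486 with 2, 21 and 17 with 3, and 625 and 855 with all 4. Few reads therefore stopped 1 exon short of, or 1 exon beyond, the chain of Cox4i1-204.

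Rpl5 encodes a protein of the large ribosomal subunit that binds 5S ribosomal RNA. Rpl5-204 (chr5:107904114-107908050) held 803 and 1195 reads, 88.7% and 89.2% of the gene's Known reads (89.0% ± 0.318, SD, n = 2). Its first exon reaches 603 bases into an 848-base intron, and those bases hold Snord21 (chr5:107904555-107904648), a small nucleolar RNA gene. Along the coding Rpl5-201, with 7 introns, 803 and 1195 reads spliced 2 introns, 6 and 12 spliced 1, 1 and 4 spliced 3, and 96 and 133 spliced all 7. The Known reads of a ribosomal protein gene thus sat mostly in the retained-intron model in both libraries.

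Fxyd1 encodes phospholemman, a regulator of the sodium pump. Fxyd1-213 held 55 and 110 reads, 61.1% and 63.2% of the gene's Known reads, and its first exon reaches only 16 bases into the intron. No read of the gene's 7-intron transcript Fxyd1-212 stopped 1 intron earlier or later, against 22 and 43 reads that spliced all 7. Its level was 0.76 higher in replicate 2 on the log2 scale (Fisher's exact test, adjusted p = 0.0064), short of the minimum of 1 set for a call.

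Sparc encodes a secreted glycoprotein of the extracellular matrix. Sparc-205 held 453 and 441 reads, 29.7% and 31.5% of the gene's Known reads. Here reads stopped at every intron count along Sparc-201: 60 and 59 reads had 3 introns, 453 and 441 had the 4 of Sparc-205, 70 and 71 had 5, and 839 and 736 had all 9. A second member, Sparc-203, is the model with 3 introns and held 60 and 59 reads. Psmb6-202, of a catalytic subunit of the proteasome, held 69 and 82 reads beside 284 and 389 that spliced all 5 introns of Psmb6-201, and no read spliced 2 introns. Fh1-203, of the Krebs cycle enzyme fumarate hydratase, held 41 and 49 reads beside 196 and 171 over all 9 introns, with 2 and 2 reads that spliced 1 intron more.

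**Figure D2:**
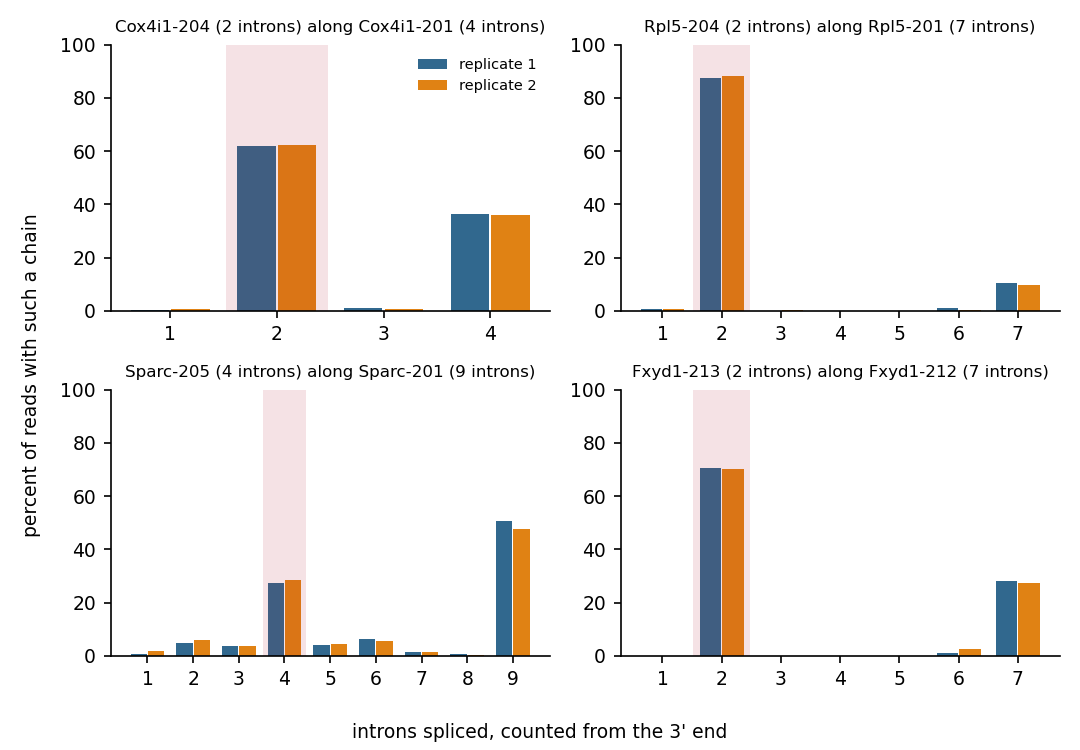
Percent of counted reads (vertical axis) for 4 contained members in both libraries. The horizontal axis is the number of introns spliced from the 3′ end of the coding transcript. The shaded column is the intron count of the retained-intron model. Only reads whose whole chain matched the 3′ end of the coding transcript were counted. These were 1659 and 1538 of the 2047 and 1977 reads of Sparc, and 78 and 157 of the 102 and 208 reads of Fxyd1. Most reads of Cox4i1, Rpl5 and Fxyd1 fell on the member's chain or on the full chain. In Sparc these chains also led, with 27.31% and 28.67% of counted reads at the member's 4 introns and 50.57% and 47.85% at all 9. The other counted reads of Sparc were spread over every other count.

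The same count was made for the 47 members contained at the 3′ end with at least 20 reads. In 30 of them the coding transcript had at least 2 introns more than the member. Among these, the member's chain held more reads than both neighbouring counts in 25 members in replicate 1 and 24 in replicate 2, and it held more reads than the full chain in 8 and 8. These members were chosen for having reads, so the counts are a description. Over all 1111 members contained at the 3′ end, the first annotated exon ran into an intron in 1104, by a median of 173.5 bases (quartiles 88 and 325.2), and it covered the whole intron in 288. For the 622 members contained at the 5′ end the last exon ran a median of 411 bases into the intron. Ndufa7-204, of a subunit of respiratory complex I, led those with 38 and 47 reads, 11.5% and 10.2% of the gene's Known reads.

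**Figure D3:**
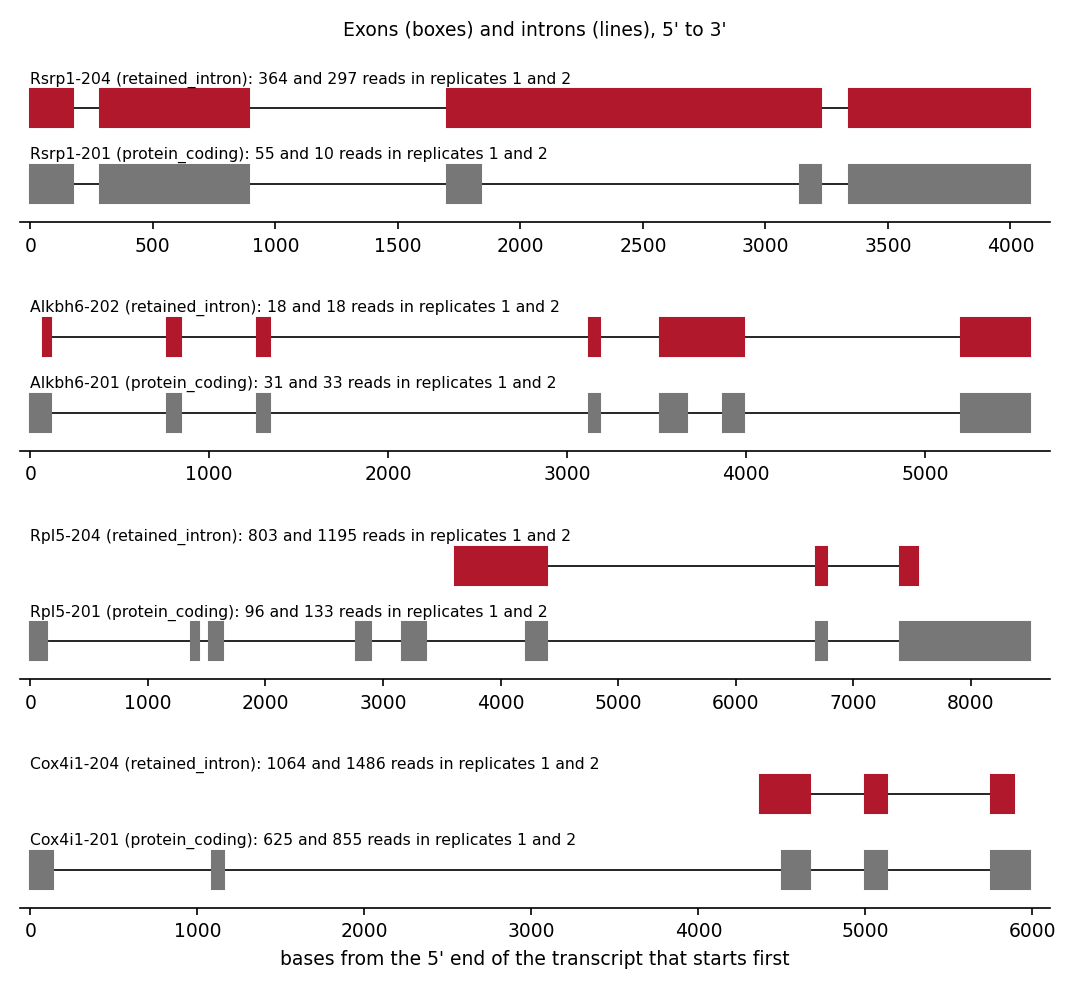
Exons as boxes and introns as lines for 4 retained-intron models (upper row of each panel) and the coding transcript of the gene (lower row), in bases from the 5′ end. In Rsrp1-204 and Alkbh6-202 a single inner exon covers 2 exons and the intron between them, while Rpl5-204 and Cox4i1-204 begin inside an intron and share the rest of their chain with the coding transcript.

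Among own chains, Rsrp1-204 stood apart. Rsrp1 encodes an arginine- and serine-rich protein. Rsrp1-204 (chr4:134923592-134927671) held 364 and 297 reads, 529 and 366 CPM, and was 86.1% and 94.3% of the gene's Known reads (90.2% ± 5.82, SD, n = 2). It keeps a 1302-base intron that the coding Rsrp1-201 splices, whose junction sequences are given above, and otherwise has the same exons. Of the 3051 bases of Rsrp1-204, all but 13 also lie in exons of the gene's transcripts of other types. Nearly all of that intron is thus annotated as exon in such transcripts too. Reads of Known models kept this intron 364 times and spliced it 55 times in replicate 1, and kept it 297 times and spliced it 10 times in replicate 2. The intron was thus kept in 86.9% (Wilson 95% interval 83.3 to 89.8) and 96.7% (94.1 to 98.2) of these reads, and the intervals did not overlap. The share of Rsrp1-204 in its gene did not pass the test after adjustment (Fisher's exact test, adjusted p = 0.179). The level of the model was 0.53 lower in replicate 2 on the log2 scale (adjusted p = 0.0019), below the minimum of 1. The other 364 own-chain members held 725 and 851 reads in all, 0.142% and 0.150% of Known reads.

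Ccnl2-205 was the next own chain by reads. Ccnl2 encodes cyclin L2, a partner of kinases that act on the transcription and splicing machinery. The model held 22 and 41 reads, 44.0% and 63.1% of the gene's Known reads, but only 16.4% and 27.7% of all reads of the gene. It keeps a 1664-base intron. No read of a Known model spliced that intron, and over all models with 2 or more exons it was kept in 72.5% and 83.3% of reads. Maged1-207, of a MAGE family adaptor protein, held 31 and 29 reads, 8.03% and 7.44% of the gene's Known reads. Maged1 lies on the X chromosome.

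The percentage of reads that kept an intron was computed for introns inside inner exons of own-chain members, as reads of Known models that kept the intron over reads that kept or spliced it. Reads that kept it include those of contained models whose end exon covers the intron, which are not known to hold it, so the value with reads of inner exons alone, spliced on both sides of the kept intron, is given wherever it differs for a named intron. There were 222 introns in 177 genes with 20 or more of these reads in each library. Of these, 217 were spliced in at least 1 read. The other 5, in Rsrp1, Ccnl2, Maged2 and Sirt7, were kept by every read of a Known model in both libraries and were set aside, since no Known read spliced them. For the 217 the median was 2.53% in both replicates, 19 introns were at 10% or more in both libraries, 7 at 20% or more and 1, that of Rsrp1, at 50% or more. Known reads kept the intron in both libraries in 132 of the 217, and in 125 with inner exons alone. The Wilson intervals of the libraries overlapped in 216 of the 217, the exception being the intron of Rsrp1. With few reads these intervals are wide, so their overlap does not show that an intron was kept in both libraries. Reads of end exons entered in 30 of the 217, and with inner exons alone the medians were 2.38% and 2.5%, with 19 introns at 10% or more and 6 at 20% or more. Across these introns the percentages of the libraries had a Pearson's r of 0.878 and a Spearman's rho of 0.442, and without Rsrp1 0.789 and 0.434, given as a description since introns share libraries and some share reads.

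Several introns were kept at like percentages in both libraries. The 202-base intron of Alkbh6, a gene of the AlkB family of dioxygenases, was kept in 18 of the reads and spliced in 31 in replicate 1, and kept in 18 and spliced in 33 in replicate 2, 36.7% and 35.3%. The 72-base intron of Ppdpf was kept in 38.2% and 40.0%, but only in 23.0% and 25% with inner exons alone (14 and 20 reads), since Ppdpf-205, a contained model, held the other 15 and 20 reads. The 874-base intron of Srsf7, an SR protein that regulates splicing, was kept in 29.2% and 27.6%. The 111-base intron of the sugar transporter gene Slc50a1 was kept in 26.6% and 30.0%, and in 16.1% and 19.2% with inner exons alone (9 and 10 reads). The 71-base intron of Slc1a5, a transporter of neutral amino acids, was kept in 21.6% and 19.5%. For Mrps26, a protein of the mitochondrial ribosome, the 80-base intron was kept in 18.6% and 20.5%.

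Lower percentages with more reads behind them were also close. The 218-base intron of Maged1 was kept in 8.03% and 7.44% of reads, with 355 and 361 reads that spliced it. For Stub1, a ubiquitin ligase that works with chaperones, the 178-base intron, which overlaps the microRNA gene Mir3082, was kept in 8.14% and 9.83%. The 326-base intron of Rpl10a was kept in 4.45% and 4.03%, the 77-base intron of Mrps24 in 4.90% and 5.0% (2.86% and 3.8% with inner exons alone), and the 583-base intron of Rpl3 in 0.739% and 0.458% (1075 and 1304 reads spliced it). Wider gaps were seen where reads were few. The 169-base intron of the choline kinase gene Chkb was kept in 20.9% and 37.8% of reads, from 9 and 14 reads that kept it, and the 2280-base intron of Arglu1 in 8.82% and 25%, from 6 and 9. In both the Wilson intervals overlapped.

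**Figure D4:**
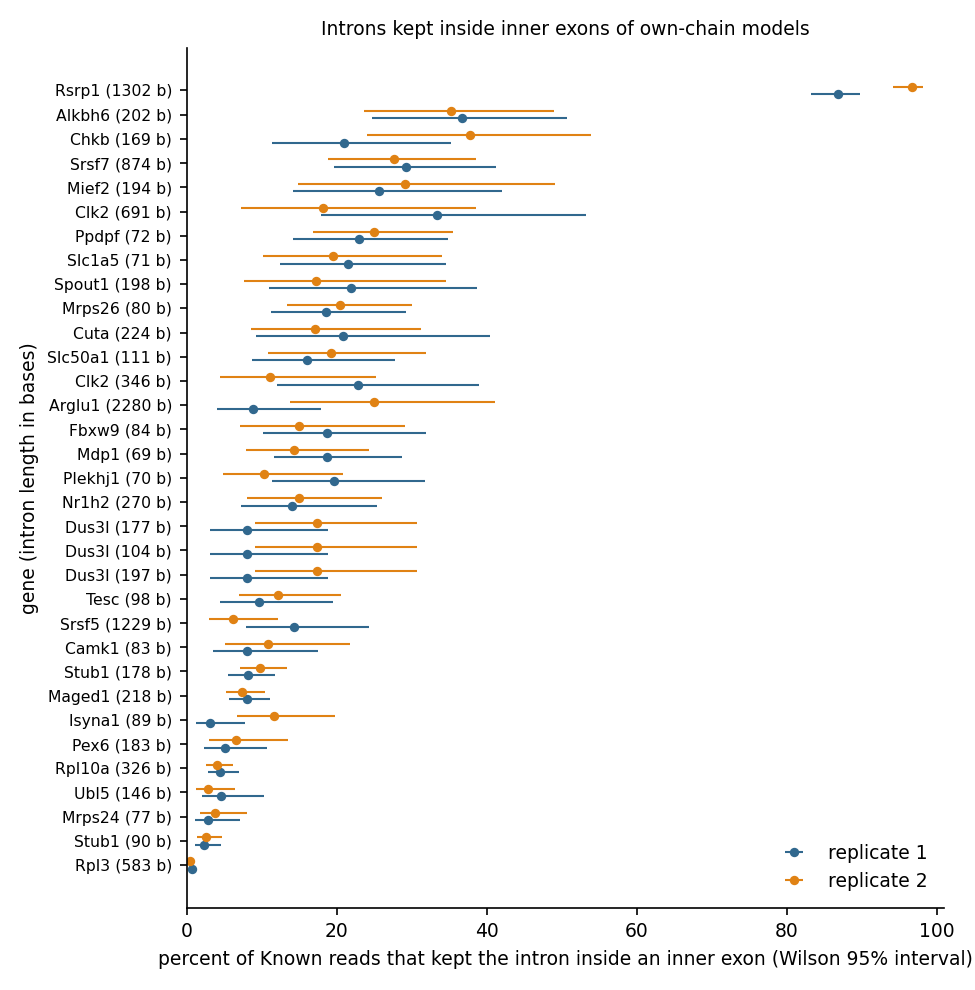
Percent of Known reads that kept the intron inside an inner exon (horizontal axis) in each library, with Wilson 95% intervals, for 33 introns of own-chain members with at least 10 reads and at least 20 reads that kept or spliced the intron in each library; the intron length in bases follows each gene. Rsrp1 stands at 86.9% and 96.7%, and the others run from 0.739% and 0.458% in Rpl3 to 36.7% and 35.3% in Alkbh6, with a single library of Chkb higher at 37.8%.

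Counting reads of all models with 2 or more exons, new splice combinations included, moved some of these values. The 1229-base intron of Srsf5 was kept in 14.3% and 6.14% of reads of Known models and in 43.4% and 34.2% of reads of all such models. For Nr1h2, a nuclear receptor for oxysterols, the 270-base intron moved from 14.0% and 15% to 30.3% and 40.4%. Rsrp1 (87.2% and 96.9%), Alkbh6 (39.3% and 39.0%) and Maged1 (8.54% and 8.71%) changed little.

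Nearly all kept introns had the usual splice-site letters, and their lengths varied widely. In genes with at least 20 Known reads in each library, 238 introns of coding transcripts lay whole inside an inner exon of a member with reads, and 235 of them start with GT and end with AG. Another 2 had GC and AG. The 8 starting letters ATATCCTT or GTATCCTT, which mark many introns of the minor spliceosome, were looked for on the gene's own strand and stood at the start of 4 of the 238, and of 5 of the 847 introns described next. Their median length was 238 bases (quartiles 109.2 and 687.2), against 490 bases (144 and 1336) for the 1473 other introns of coding transcripts in the same 175 genes, and 52 of them (21.9%) were under 100 bases, against 14.8%. Of the 238, 236 lay between coding bases. In 65 of these the length was a multiple of 3, in 215 a stop codon lay in frame, and 5 had both a length that is a multiple of 3 and no stop.

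Introns held in inner exons only by annotated retained-intron transcripts with 0 reads had similar values. First, last and only exons were not looked at, so some of these introns may lie in such an exon of a member with reads. These were 847 introns in genes that also had at least 20 Known reads in each library, but depth was not matched further. They had a median length of 224 bases and a median GC content of 51.7%, against 52.9%, and 835 of them had GT and AG. A stop codon lay in frame in 732 of the 838 that lay between coding bases. These values are descriptions without a test.

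Over genes, the share of Known reads in retained-intron models was mostly small. Of 4182 genes with at least 20 Known reads in each library, 2588 have an annotated transcript of this type, 1112 had a member read, and 625 had member reads in both libraries. Among the 1112 the median share was 1.5% in replicate 1 and 2.38% in replicate 2. The share was 10% or more in both libraries in 88 genes and 50% or more in 8. Counting own chains alone, 19 genes were at 10% or more and 1, Rsrp1, at 50% or more.

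The 8 genes at 50% or more were C4b, Rsrp1, Rpl5, Ss18l2, Cox4i1, Fxyd1, Cstf3 and Rex1bd. C4b, complement component 4B, had 28 of 28 and 38 of 41 Known reads in C4b-203, a chain of 1 intron; C4a is a near-identical copy next to it, and most reads of C4b were in models of other classes (135 and 189 reads in all), so this share is uncertain. Ss18l2 stood at 70.5% and 67.6% through 2 members, Ss18l2-203 with 19 and 28 reads and the single exon Ss18l2-207 with 24 and 22. Cstf3, a factor of messenger RNA 3′ end formation, rested on 11 of 20 and 13 of 22 Known reads. Rex1bd stood at 51.1% and 51.4%. Just below 50% in 1 library were Ccnl2 (44.0% and 64.6%), Ppdpf (47.2% and 50%), Sf3b6, a protein of the U2 snRNP, with 50% and 42.8%, and Stau1, which binds double-stranded RNA, where Stau1-209 held 22 and 33 reads or 45.8% and 58.9%.

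Genes of SR proteins and of the kinases that act on them had several own-chain members. The lists were chosen with earlier results of these data known, and no test was made over them. Of 13 genes for SR proteins, 7 had member reads, 46 of 932 Known reads in replicate 1 and 46 of 1038 in replicate 2 (4.94% and 4.43%), and own chains held 31 and 29 of these (3.33% and 2.79%, against 0.213% and 0.202% over all Known reads). Srsf7-207 held 15 and 18 reads and Srsf5-212 held 10 and 7, both own chains. Srsf2-203, a contained chain, held 7 and 6. Another list held 14 genes known for detained introns, kinases and others, among them Srrm1, Srrm2, Taf1d and Cdk5rap3, which encode no kinase. Of these 14 genes, 9 had member reads, 23 of 494 and 19 of 426 Known reads. Clk2-207 held 8 and 4 reads, and Clk1-212 held 4 and 8 of only 15 and 11 Known reads of Clk1, so the shares of Clk1, 26.7% and 72.7%, rest on few reads. Among 39 hnRNP proteins and other splicing regulators, 17 genes had member reads, 31 of 2848 and 54 of 2956, or 1.09% and 1.83%. Own chains held 14 and 5 of these, 0.492% and 0.169%, which in replicate 2 lay below the share over all Known reads. The leading members were Hnrnpr-211, a single exon (4 and 10 reads), and U2af1-204, a contained chain (4 and 9).

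In the genes that define the gland, reads of annotated retained-intron models were nearly absent. A gene without an annotated transcript of this type can hold no member, and the number of such genes in these lists is not given. The 16 genes of steroid synthesis had 21086 and 14610 Known reads, and their members held 1 and 8 of them (0.00474% and 0.0548%), in Soat1, Scarb1 and Cyp11a1. Cyp11a1-204, of the enzyme that makes pregnenolone from cholesterol, held 0 and 1 read beside 3897 and 3556 Known reads of Cyp11a1. The 18 chromaffin genes had 8591 and 7444 Known reads and a single member read, in Slc18a1. Among 21 imprinted genes, 2 had member reads: Cdkn1c-204, a contained chain of the gene for the cell cycle inhibitor p57, with 14 and 22 reads (1.34% and 2.29% of the gene's Known reads), and Nnat-203 with 1 and 4. The 27 liver genes had 1551 and 20902 Known reads and 0 and 12 member reads.

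The 78 genes of cytosolic ribosomal proteins had 72 members, with 1109 of 27050 and 1634 of 36978 Known reads (4.10% and 4.42%). Rpl5-204 held most of them, and Rpl26-204 held 38 and 47. Own chains held 30 and 35 reads, 0.111% and 0.0947% of the Known reads of these genes, led by Rpl10a-206 with 16 and 19. Genes that host small nucleolar RNAs, 19 in the list, had 11 members with 6 and 15 reads. Small nucleolar RNA genes lay inside exons of 18 members, which held 822 and 1218 reads, nearly all of them in Rpl5-204, and microRNA genes inside exons of 19 members with 58 and 74 reads.

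Presence in both libraries followed depth. Of the 2570 members, 984 (38.3%) had a read in both libraries, against 73.4% of protein_coding models, 46.2% of nonsense_mediated_decay models and 42.4% of processed_transcript models. At like totals the types were close: with 2 to 4 reads over both libraries 60.3% of retained-intron models were in both, against 62.1% of protein_coding models, and with 5 to 9 reads 94.4% against 92.7%. All 220 members with 10 or more reads were in both libraries. Own chains were in both in 165 of 365 cases (45.2%) and contained chains in 630 of 1796 (35.1%). Across the 984 shared members, log2 CPM had a Pearson's r of 0.764 and a Spearman's rho of 0.612. That is a description, since many models share genes and most hold few reads. For 1427 members in genes with at least 20 Known reads in each library, the share of the gene's Known reads had r = 0.877 and rho = 0.256.

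**Figure D5:**
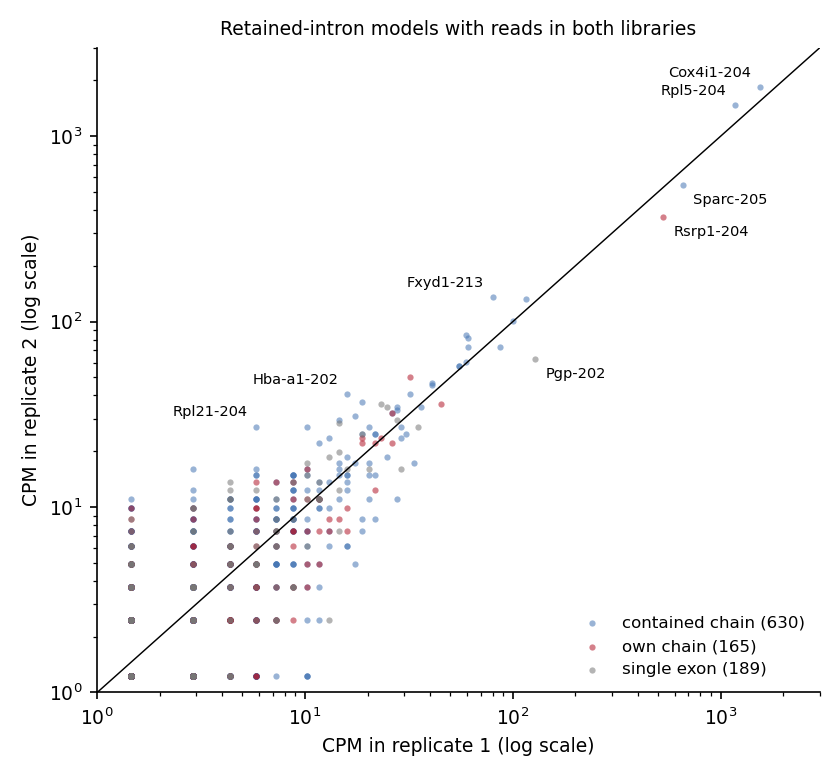
CPM in replicate 2 (vertical, log scale) against replicate 1 (horizontal, log scale) for the 984 retained-intron models with reads in both libraries, by class; the line marks equal CPM and steps at low values are single reads. The abundant models lie near the line, with Cox4i1-204 at 1546 and 1833 CPM, and the models called between the libraries are Pgp-202, Rpl21-204 and Hba-a1-202.

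Few members differed in level between the libraries. The level test took in every Known model whose reads summed to 20 or more. Fisher's exact test set a model's reads against all other Known reads, while the log2 ratio came from CPM of mouse reads. Known reads were 74.2% and 70.09% of mouse reads, so a call with a ratio near the minimum depends on the total used. A call needed a Benjamini-Hochberg adjusted p below 0.05 together with a change of 1 or more on the log2 scale, in either direction. Of 6901 models tested, 3.55% were called, 2.17% higher and 1.38% lower in replicate 2. Of the 80 retained-intron models tested, 3 were called, 2 higher and 1 lower, a share of 3.75%, close to that background. The median log2 ratio was 0.15 for the members and -0.20 for all models tested. None of the 11 own chains tested was called, and 1 had an unadjusted p under 0.05.

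Pgp-202, a single exon of the phosphoglycolate phosphatase gene, fell from 88 to 51 reads, 128 and 62.9 CPM (log2 ratio -1.02, Fisher's exact test, adjusted p = 0.0038). It was not called with TMM scaling (-0.92), with DESeq2's size factors (-0.78, adjusted p = 0.0501) or with 5 CPM added (-0.97). Rpl21-204 had 4 and 22 reads (log2 ratio 2.13, Fisher's exact test, adjusted p = 0.0192, but 0.0591 when models with 1 or more reads were tested), of 13 and 38 Known reads of Rpl21, a ribosomal protein gene with near-identical pseudogenes, so its counts are uncertain. Hba-a1-202, of alpha globin, had 11 and 33 reads (log2 ratio 1.32, Fisher's exact test, adjusted p = 0.0457), and was not called when models with 10 or more reads (adjusted p = 0.0554) or with 1 or more (0.137) were tested. The Known reads of Hba-a1 were 1367 and 3131, so the model's share of the gene was 0.805% and 1.05%. Hba-a2 is a near-identical copy, and the split of reads between them is uncertain.

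The share of a model in its gene does not depend on scaling. It was tested for all 7567 Known models of genes with at least 20 Known reads in each library and at least 2 Known models, and 0.0396% were called at an adjusted p below 0.05 with a difference of 10 points or more, 0.0132% higher and 0.0264% lower in replicate 2. None of the 1427 retained-intron models tested was called by Fisher's exact test, and 24 had an unadjusted p under 0.05. The differences of these members ran from -21.9 to 27.4 points, with a median of 0.521 points.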

How the data were processed

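Per the file headers, which carry tags of the TALON program, each library has a deposited table of read counts for its transcript models, not normalized. Per the labels the build is mm10, while aligner and read filters were not given in the sources used here. Both deposited annotations hold the same 141862 transcripts, types and exons as GENCODE M21, from which sequences were read. Spike-ins, and new models placed on spike-in sequences, were left out. Counts were tested with two-sided Fisher's exact tests and Benjamini-Hochberg adjustment over all Known models (Python 3.11.15, scipy 1.17.1), since 1 library a side leaves no degrees of freedom for a model of counts; 0.5 CPM was added for log2 ratios. Both tests were checked on simulated reads with planted changes and counting error alone, so the check does not cover other variation between libraries. Wilson 95% intervals and the limit of 3 reads cover counting error only, since no molecular identifiers were counted. Members, classes and lists were chosen with earlier results of these data known. Members named are the 20 with the highest mean CPM, the 10 with the highest share of their gene, those called, and up to 4 of each of 10 gene lists with at least 10 reads; other members were named after their values were seen, and 1 is not reported here. Alternatives used edgeR 4.0.16 (TMM) and DESeq2 1.42.0 size factors, other minimums, and members by class.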

Additional observations from a re-analysis of the deposited data

How the results depend on the processing

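Own-chain members alone, chosen after seeing the data, reversed the direction of the share of Known reads (mean 0.208%, Fisher's exact test p = 0.204); without Rsrp1-204 it was 0.146% and higher in replicate 2, without passing the test (p = 0.301). Own chains gave 1 gene at 50% or more, 165 models in both libraries and 0 calls of level. The share of all members kept its direction and call with all mouse reads as the denominator (1.11%), with members of 2 or more exons (1.38%), without the 3 leading models (1.04%) and without liver and globin genes (1.58%), and each library alone gave 1.42% and 1.67%. The 3 calls of level became 1 with at least 50 reads, which leaves 21 members, 1 with at least 1 read, which tests 2570, and 2 with at least 10 reads. Called models with TMM scaling were 2 and with DESeq2's size factors 3, of which 2 were shared; those factors were 1 for both libraries and moved the median log2 ratio of all models from -0.20 to 0.04. The 8 genes at 50% or more became 5 over all reads of the gene, 9 in replicate 1 alone and 11 in replicate 2 alone. Models in both libraries numbered 462 with at least 2 reads in each and 164 with at least 5. Members holding a whole intron numbered 983, and 887 with introns of coding transcripts alone. No call of a share arose under any of 5 alternatives. Of 40 kept percentages, 22 moved by more than 1 SD over all models with 2 or more exons, 21 of them upward, and 3 moved downward with inner exons alone. No paired analysis was possible because there is only 1 group. Depth limits most members: 1236 rest on 1 read.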

Other observations

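Single-exon members, 409 in all, held reads that no intron chain assigns, and 163 of them contain a whole annotated intron. Pgp-202 led with 88 and 51 reads. Ss18l2-207 followed with 24 and 22 reads, Egfl7-213, of a gene for a factor secreted by endothelial cells, with 16 and 29 (22.9% and 31.2% of the gene's Known reads), and Tssc4-207 with 17 and 28 (32.1% and 39.4%). Cbx6-208, of a Polycomb group protein, held 14 and 13 reads, 38.9% and 36.1% of the gene's Known reads. Cspp1-223 was the only Known model of its gene with reads, 20 and 13.

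Among the 2570 members, 562 hold 1 whole intron of another transcript type and 421 hold 2 or more, and 321 hold one in an inner exon. Nonsense_mediated_decay models, with which intron retention is often compared, differed in class: 713 of 729 had an own chain, against 365 of 2570 retained-intron models. They held 1705 and 1956 reads, 0.334% and 0.344% of Known reads.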
